A study of Homo sapiens with 43 samples.

Results

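The ATP-binding cassette (ABC) transporter genes of the human cell line HMC3 were followed through exposure to a glucocorticoid and its washout. They were taken by symbol, as the protein-coding genes of the count table whose current name is ABC, a subfamily letter from A to G and a number. This gave 33 of the 20052 genes in the table; 12 further genes with such names in the reference annotation are not analysed here, among them ABCG1. A gene entered the tests when it passed a filter on low counts, which 16816 genes did, and 32 of the 33 ABC genes were among them. The exception was ABCB4, which exports phospholipid into bile and had 86 counts over all libraries.

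ABC transporters bind ATP on a pair of cytoplasmic domains and use its hydrolysis to move lipids, steroids, drugs, peptides or conjugated metabolites across a membrane. The ABCA members mostly move lipids, ABCB1 (P-glycoprotein), ABCG2 and many ABCC members pump drugs and conjugates out of cells, and the ABCD members and several of the ABCB members serve peroxisomes, lysosomes and mitochondria. ABCE1 and the ABCF members have the ATP-binding domains without a membrane part and act on ribosomes and translation. In the brain ABCB1 is best known from the capillary endothelium of the blood-brain barrier, where dexamethasone and cortisol are among its substrates, and ABCA1 and ABCA7 from lipid export by glia.

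HMC3 is an immortalised human line distributed as microglia, and every group came from it. Day 3 libraries came from flasks kept for 3 days with dexamethasone (a synthetic glucocorticoid) at 1 or 0.01 µM, with hydrocortisone (cortisol) at 10 or 0.01 µM, with the ethanol vehicle belonging to each of these 4 doses, or in untreated medium, in 9 groups of 3 libraries. Day 6 libraries came from cells reseeded from such flasks and grown for a further 3 days without hormone, with 3 libraries for each hormone dose and 1 for each vehicle. The labels give no ethanol concentration. They speak of flasks harvested one by one and say nothing more of how independent the replicates were, so a p-value here reflects variation among the libraries at hand, part of which may be technical. RNA came from whole cultures, in which fewer expressing cells and less RNA per cell cannot be told apart.

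The 43 libraries held 7638840 to 24426643 counts each. Genes of ribosomal RNA took 9.897 to 94.86% of them and over 75% in 7 libraries, each of another group, which left 1083399 to 17542039 other counts, and the ABC genes received 0.103% of those. Of 10 microglia and macrophage markers, 3 were in the table and none had a median above 1 CPM, while 7 of 10 fibroblast and pericyte markers did, COL1A1, a collagen chain, at 1680 CPM of the counts outside ribosomal RNA. Of 6 astrocyte markers 3 were above 1 CPM, with GJA1, a gap junction protein that other cell types also make, at 194 CPM. None of 6 endothelial markers had a median above 1 CPM, with VWF, a carrier of clotting factor, at 0.595 CPM of those counts.

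For members whose RNA changed, the bases before the transcription start are shown, because the receptor of both hormones is a DNA-binding factor. The windows are the 250 bases that end at a RefSeq start on GRCh38.p14, written 5′ to 3′ on the gene's strand. Capitals mark the glucocorticoid receptor half-site AGAACA and the GC box GGGCGG, each searched on both strands; a half-site and a GC box cannot overlap. ABCB1 has a start near the upstream end of the annotated gene (window chr7:87713296-87713545, minus strand) and another inside it (chr7:87600885-87601134, minus strand). The other windows are those of ABCA1 (chr9:104928156-104928405, minus strand), ABCA7 (chr19:1039857-1040106, plus strand) and ABCE1 (chr4:145098061-145098310, plus strand).
ABCB1, upstream start: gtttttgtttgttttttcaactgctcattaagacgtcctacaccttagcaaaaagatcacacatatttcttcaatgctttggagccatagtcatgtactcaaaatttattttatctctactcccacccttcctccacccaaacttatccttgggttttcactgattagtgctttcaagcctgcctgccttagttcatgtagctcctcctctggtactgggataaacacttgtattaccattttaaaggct
ABCB1, inner start: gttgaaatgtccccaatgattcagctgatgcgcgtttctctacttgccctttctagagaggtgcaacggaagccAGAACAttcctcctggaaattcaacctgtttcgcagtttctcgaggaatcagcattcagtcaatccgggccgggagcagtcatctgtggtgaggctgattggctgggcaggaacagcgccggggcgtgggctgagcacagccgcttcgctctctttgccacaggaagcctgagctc
ABCA1: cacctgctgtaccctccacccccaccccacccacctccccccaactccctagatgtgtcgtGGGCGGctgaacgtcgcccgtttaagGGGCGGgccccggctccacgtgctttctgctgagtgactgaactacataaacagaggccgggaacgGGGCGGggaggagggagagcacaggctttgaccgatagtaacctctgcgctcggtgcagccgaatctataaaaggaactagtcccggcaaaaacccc
ABCA7: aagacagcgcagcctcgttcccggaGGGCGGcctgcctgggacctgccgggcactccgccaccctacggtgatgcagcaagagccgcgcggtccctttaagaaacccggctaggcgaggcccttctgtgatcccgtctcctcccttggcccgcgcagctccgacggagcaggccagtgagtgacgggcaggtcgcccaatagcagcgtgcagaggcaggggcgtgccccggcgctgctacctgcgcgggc
ABCE1: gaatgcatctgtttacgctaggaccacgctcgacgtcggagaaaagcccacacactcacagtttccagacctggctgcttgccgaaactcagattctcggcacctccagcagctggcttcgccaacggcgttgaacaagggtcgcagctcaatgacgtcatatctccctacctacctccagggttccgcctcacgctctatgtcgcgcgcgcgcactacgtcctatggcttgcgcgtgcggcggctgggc
The inner ABCB1 window held 1 half-site, which began 176 bases before the start. The ABCA1 window held 3 GC boxes, 189, 163 and 97 bases before the start, and that of ABCA7 held 1, 225 bases before it. The promoter table covered 26 of the 33 members, with 39 windows; ABCA8 had no entry. A half-site was present in 2 of the 39, those of ABCB1 and ABCA12, against 12.4% of all 35116 windows of this length, and a GC box in 23 of the 39, against 42.6% of all. The full palindromic glucocorticoid response element and the direct repeat bound by liver X receptors occurred in none of the 39 and in 0.00285% and 0.0142% of all windows. A match is a run of letters in the window and no more.

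Without hormone, the ribosome-associated members ABCF1 and ABCE1 stood highest. Over the 15 day 3 libraries of vehicle and medium, ABCF1, a translation initiation factor, had a median level of 19.6 RPKM (CPM of the TMM-scaled library per kilobase of annotated exons), and ABCE1, the ribosome recycling factor, 18.3 RPKM. Next came ABCD3, a peroxisomal importer of fatty acids, at 5.14 RPKM, with ABCC1, an exporter of glutathione conjugates, at 3.39 RPKM and ABCA1, which loads cholesterol and phospholipid onto apolipoprotein A-I, at 3.16 RPKM. ABCB1 and ABCA8 stood at 1.68 and 1.06 RPKM, above ABCA7 at 0.546 and ABCG2, an exporter of drugs and urate, at 0.401 RPKM. Altogether 2 members exceeded 10 RPKM, 16 lay between 1 and 10, 7 between 0.1 and 1, and 8 below 0.1 RPKM. Neighbours in this order overlapped in their range over libraries, except that every value of ABCE1 was above every value of ABCD3.

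**Figure D1:**
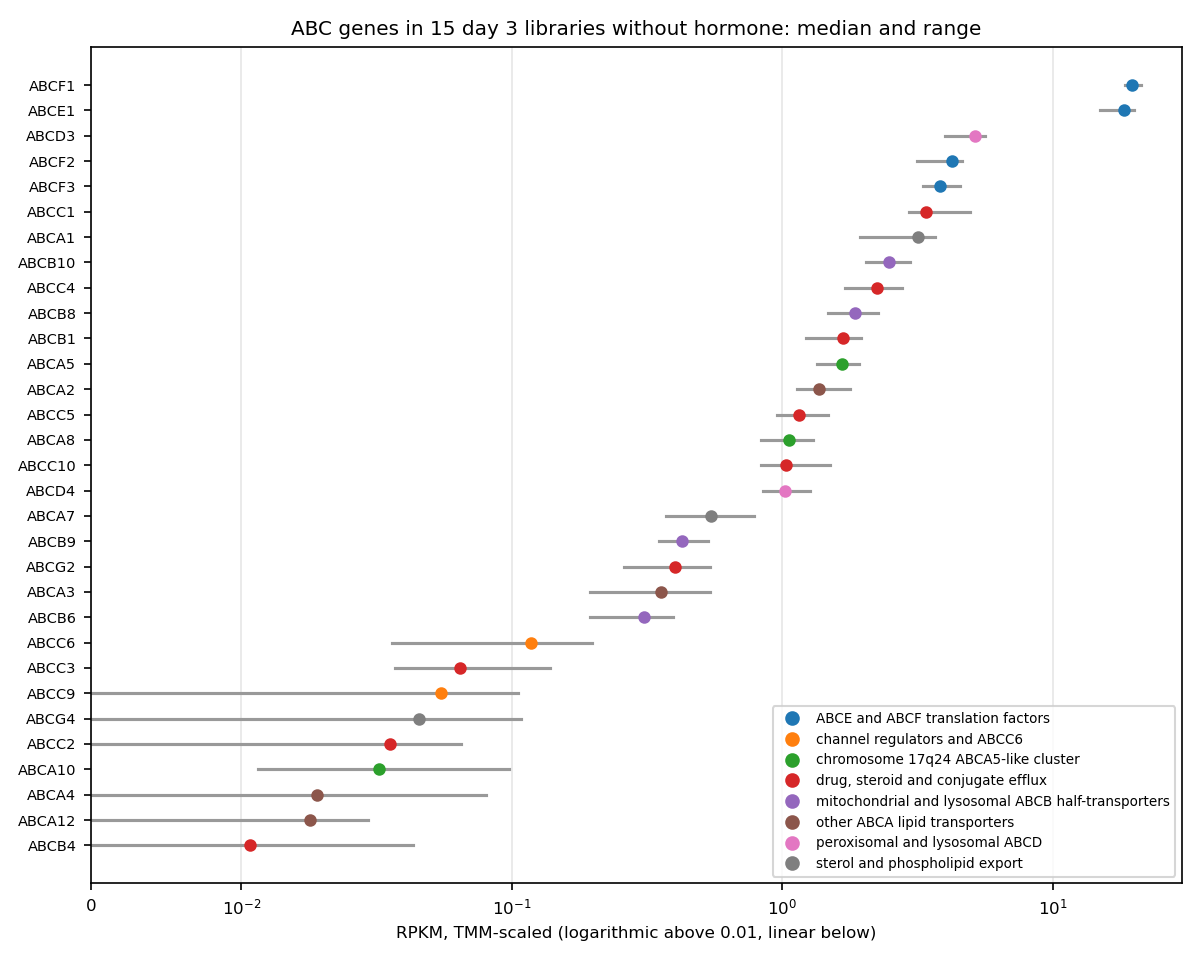
Level of 31 ABC genes in the 15 day 3 libraries without hormone (horizontal axis, RPKM, logarithmic above 0.01); points are medians, lines the range over libraries, colours the role. ABCF1 and ABCE1 stand apart at the top, and ABCB4 is lowest at a median of 0.0108 RPKM.

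Exposure raised the RNA of the lipid transporter ABCA8 and the efflux pump ABCB1 at both doses of dexamethasone and at the high dose of hydrocortisone. Several other ABCA genes and, with dexamethasone, ABCC genes rose as well, and fewer members fell. On day 3, each dose against its own vehicle, 1 µM dexamethasone changed 14 of the 32 tested members (11 higher, 3 lower; edgeR's quasi-likelihood test, adjusted p below 0.05), where 22.6% of all genes tested passed, 10.3% higher and 12.3% lower. At 0.01 µM it changed 10 (9 higher, 1 lower), where 14% of all genes tested passed, 6.15% higher and 7.84% lower. Hydrocortisone at 10 µM changed 5 (4 higher, 1 lower), where 13.1% of all genes tested passed, 5.58% higher and 7.5% lower, so that its share of members was near the background. For this dose the choice of controls moved the count, to 14 (12 higher, 2 lower; 24.2% of all genes) against all 12 vehicle libraries of day 3 and to 11 (9 higher, 2 lower; 17.3% of all genes) against medium.

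The median log2 fold change of the tested members was 0.39 for 1 µM dexamethasone, 0.17 for 0.01 µM and 0.26 for 10 µM hydrocortisone, beside 0.02, 0.00 and 0.01 over all genes tested. Without the ABCE and ABCF genes, the members' summed level was 437 to 442 CPM in the libraries of 1 µM dexamethasone, against 264 to 274 CPM in their vehicle. It was 386 to 409 CPM at 0.01 µM dexamethasone against 272 to 281 CPM in its vehicle, and 398 to 416 CPM at 10 µM hydrocortisone against 246 to 299 CPM in its vehicle. Hormone and vehicle libraries did not overlap in this sum at any of the 3 doses. ABCA8 alone made up 114 to 121 CPM of it at 1 µM dexamethasone against 11.5 to 12.6 CPM in vehicle, 63.8 to 85.6 CPM at 0.01 µM against 11.8 to 12.8 CPM, and 81.9 to 86.1 CPM at 10 µM hydrocortisone against 10.1 to 11.2 CPM.

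**Figure D2:**
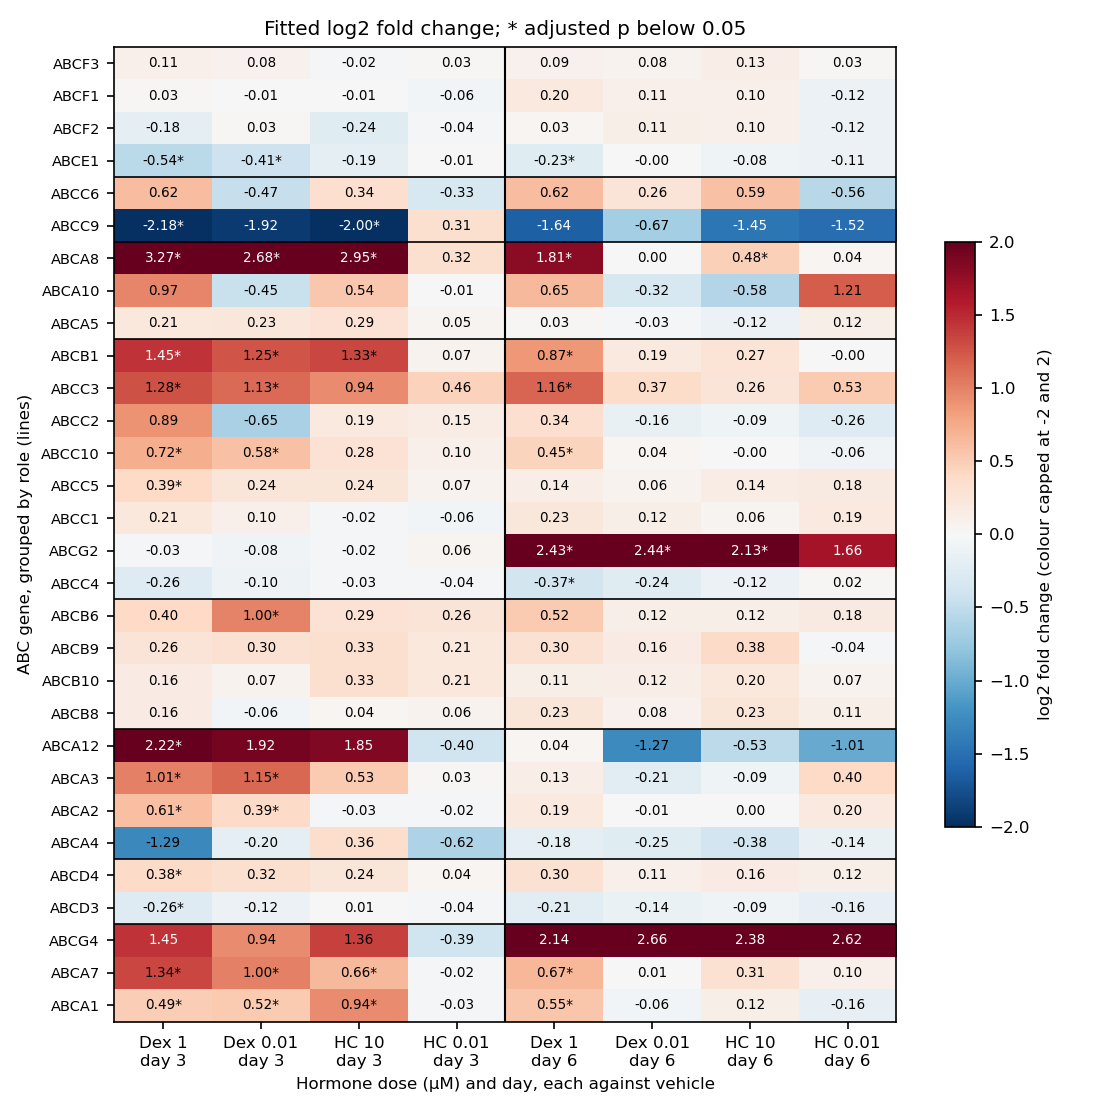
Fitted log2 fold change of 30 tested ABC genes (rows, grouped by role) for each hormone dose against vehicle on day 3 and day 6 (columns); stars mark an adjusted p below 0.05 and colours are capped at 2 on either side. The 4 day 3 columns hold 14, 10, 5 and 0 stars for 1 and 0.01 µM dexamethasone and 10 and 0.01 µM hydrocortisone, and the 4 day 6 columns hold 9, 1, 2 and 0.

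Among the lipid transporters ABCA8 changed most. It lies on chromosome 17 (68867292 to 68955392, minus strand, GENCODE v29 on GRCh38) and is known for cholesterol export and a role in sphingomyelin production. Its level was 121, 118 and 114 CPM in the 3 libraries of 1 µM dexamethasone, against 12.6, 12.5 and 11.5 CPM in their vehicle. At 0.01 µM dexamethasone it was 85.3, 85.6 and 63.8 CPM, against 12.8, 11.9 and 11.8 CPM in vehicle. Under 10 µM hydrocortisone it reached 81.9, 82.7 and 86.1 CPM, against 11.2, 10.1 and 11.1 CPM in vehicle. Every library of these 3 doses was far above every day 3 library without hormone, the highest of which, a medium library, had 14.6 CPM. The log2 fold changes were 3.27 ± 0.13 (SE; 9.63-fold; adjusted p = 1.59e-23), 2.68 ± 0.12 (6.43-fold; adjusted p = 1.39e-20) and 2.95 ± 0.12 (7.73-fold; adjusted p = 1.12e-21).

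The tested neighbours of ABCA8 on chromosome 17 did not pass. ABCA5, a lysosomal lipid transporter 288918 bases away, had 30.4, 24.8 and 23 CPM under 1 µM dexamethasone, against 25.2, 20.9 and 21.3 CPM in vehicle (log2 fold change 0.21, 95% interval -0.06 to 0.48, adjusted p = 0.277). ABCA10, 191821 bases away, had 0.267 to 0.915 CPM, against 0.163 to 0.376 CPM in vehicle, and its interval was wide (-0.34 to 2.27). Both overlapped between the groups. ABCA5 and ABCA10 share 318 bases of exon on the same strand, and ABCA9, which lies next to ABCA8, is not analysed here.

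The sterol and phospholipid exporters ABCA1 and ABCA7 rose at 3 doses. ABCA1 had 44.1, 53.8 and 49.9 CPM under 1 µM dexamethasone, against 31.2, 39.1 and 35.3 CPM in vehicle (log2 fold change 0.49 ± 0.09, adjusted p = 0.000118). At 0.01 µM it had 49.3, 52.5 and 55.9 CPM, against 38.1, 36.8 and 34.8 CPM in vehicle (0.52 ± 0.10, adjusted p = 7.14e-05). Hormone and vehicle libraries did not overlap at either dose. For 10 µM hydrocortisone its 49.3, 52.3 and 51.7 CPM stood against 22, 24.6 and 33 CPM in vehicle (0.94 ± 0.10, adjusted p = 2.22e-10). The first 2 of these vehicle libraries were below every other vehicle library of day 3, and against all 12 the log2 fold change was 0.58 (adjusted p = 1.56e-08).

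ABCA7, a phospholipid transporter of macrophages and glia that genetic studies tie to Alzheimer's disease, had 9.17, 11.1 and 13.4 CPM under 1 µM dexamethasone, against 5.45, 3.76 and 4.13 CPM in vehicle (log2 fold change 1.34 ± 0.19, adjusted p = 3.6e-07). Under 10 µM hydrocortisone it had 8.55, 9.95 and 8.84 CPM, against 5.44, 5.31 and 6.57 CPM in vehicle (0.66 ± 0.19, adjusted p = 0.0132). That last call was lost without hydrocortisone replicate 3 or vehicle replicate 1 or 2 (log2 fold change 0.59 to 0.62). At 0.01 µM dexamethasone its levels were 7.28, 7.19 and 13.2 CPM, against 3.71, 5.12 and 4.79 CPM in vehicle (1.0 ± 0.19, adjusted p = 0.00013). The highest of these was replicate 3, in which ribosomal RNA took 94.86% of the counts; without the libraries over 75% the log2 fold change was 0.54 (adjusted p = 0.0823). ABCG4, a sterol transporter of neurons, was at or under 0.981 CPM in every day 3 library and passed in none of the 4 comparisons. Its log2 fold changes were 1.45 at 1 µM dexamethasone and 1.36 at 10 µM hydrocortisone. At 1 µM dexamethasone its 0.658 to 0.801 CPM did not overlap the 0.125 to 0.407 CPM of vehicle. These levels rest on 9, 16 and 6 counts, against 5, 3 and 6 in vehicle. Of the 32 tested members 20 did not overlap in that comparison, and the share over all genes was not computed.

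Of the other ABCA genes, ABCA3, which fills the lamellar bodies of lung cells with surfactant lipid, had 6.05, 5.49 and 5.92 CPM under 1 µM dexamethasone, against 2.6, 2.8 and 3.27 CPM in vehicle (log2 fold change 1.01 ± 0.21, adjusted p = 0.000235). At 0.01 µM it had 4.02, 5.52 and 6.38 CPM, against 1.52, 2.75 and 2.76 CPM in vehicle (1.15 ± 0.21, adjusted p = 8.76e-05). The highest of these hormone libraries had 94.86% ribosomal RNA and the lowest vehicle library 82.49%. The call was kept in all 9 settings other than leaving out 1 library (log2 fold change 0.78 to 1.17, adjusted p up to 0.0453). With 10 µM hydrocortisone ABCA3 had 6.03, 6.39 and 4.95 CPM, against 3.81, 3.98 and 4.22 CPM in vehicle libraries that were all above the other day 3 vehicles (0.53 ± 0.21, adjusted p = 0.0834). The groups did not overlap at any of the 3 doses, and the last comparison did not pass.

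ABCA2, a lipid transporter of lysosomes and myelinating cells, had 18.1, 20.5 and 27.9 CPM under 1 µM dexamethasone, against 15.7, 13.1 and 14.9 CPM in vehicle (log2 fold change 0.61 ± 0.12, adjusted p = 0.000108). The highest library, replicate 4, had a ribosomal RNA share of 76.08%, and without the libraries over 75% the value was 0.40 (adjusted p = 0.00925). At 0.01 µM the log2 fold change was 0.39 ± 0.12, adjusted p = 0.0202, and 0.29 without those libraries (adjusted p = 0.171); that call was also lost without dexamethasone replicate 3 or vehicle replicate 2 or 3 (log2 fold change 0.26 to 0.39). ABCA12, the lipid transporter of the skin barrier, passed at 1 µM (2.22 ± 0.80, adjusted p = 0.0372) on 6, 7 and 6 counts, against 0, 1 and 5 in vehicle; it lost the call without dexamethasone replicate 2 or 4 or vehicle replicate 1 or 2 (log2 fold change 1.79 to 2.16).

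Among the efflux pumps ABCB1 rose at 3 of the 4 doses. ABCB1 lies on chromosome 7 (87503633 to 87713323, minus strand). It had 25.9, 27.1 and 26.1 CPM under 1 µM dexamethasone, against 9.28, 10.3 and 9.21 CPM in vehicle. At 0.01 µM it had 19.9, 22 and 24 CPM, against 7.09, 10.9 and 9.67 CPM in vehicle. Under 10 µM hydrocortisone it had 25.3, 25.1 and 24 CPM, against 7.88, 10.3 and 11.4 CPM in vehicle. The lowest of these 9 hormone libraries was above the highest of the 15 without hormone. Its log2 fold changes were 1.45 ± 0.13 (2.74-fold; adjusted p = 3.62e-12), 1.25 ± 0.13 (2.38-fold; adjusted p = 5.55e-10) and 1.33 ± 0.13 (2.51-fold; adjusted p = 8.95e-11). ABCB4, 23197 bases from it, is the member that was not tested.

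Among the organic anion pumps of the ABCC group, ABCC10, ABCC5 and ABCC3 rose at 1 µM dexamethasone. ABCC10, an exporter of taxanes and lipophilic anions, had 10.3, 12.6 and 11.5 CPM under 1 µM dexamethasone, against 6.84, 6.97 and 7.02 CPM in vehicle (log2 fold change 0.72 ± 0.16, adjusted p = 0.000447). ABCC5, an exporter of cyclic nucleotides, had 15.5, 15.3 and 16.3 CPM, against 12, 10.9 and 13 CPM in vehicle (0.39 ± 0.10, adjusted p = 0.00193). Neither overlapped. The 3 medium libraries of ABCC5, at 14.6, 15.3 and 15.4 CPM, lay above those vehicles, and against medium its value was 0.06 (adjusted p = 0.726) and that of ABCC10 0.36 (adjusted p = 0.0941).

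ABCC3, which carries bile acids and glucuronides, had 1.78, 1.42 and 1.65 CPM under 1 µM dexamethasone, against 0.977, 0.417 and 0.617 CPM in vehicle (log2 fold change 1.28 ± 0.36, adjusted p = 0.00793). At 0.01 µM ABCC10 (0.58 ± 0.16, adjusted p = 0.00858) and ABCC3 (1.13 ± 0.38, adjusted p = 0.0408) rose as well. The ABCC10 value there was 0.35 without the libraries of over 75% ribosomal RNA (adjusted p = 0.205), a call also lost without dexamethasone replicate 3 or vehicle replicate 1 (log2 fold change 0.41 to 0.53). ABCC3 lost its call at 1 µM without vehicle replicate 2 (log2 fold change 1.02) and at 0.01 µM without dexamethasone replicate 1 or 2 or vehicle replicate 2 or 3 (log2 fold change 0.87 to 1.20). ABCC1 did not pass: it had 27.7, 23.2 and 29.4 CPM under 1 µM dexamethasone, against 22.5, 24.7 and 22.3 CPM in vehicle, with overlap (0.21, 95% interval -0.02 to 0.43, adjusted p = 0.187). ABCG2 had 1.78, 2.01 and 1.65 CPM, against 1.63, 1.71 and 2.23 CPM in vehicle (-0.03, 95% interval -0.72 to 0.65, adjusted p = 0.962).

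ABCC9 was among the few members that fell. Its product, SUR2, is the regulatory subunit of an ATP-sensitive potassium channel of muscle and pericytes, whose pore is encoded by KCNJ8. ABCC9 received 1, 4 and 3 counts under 1 µM dexamethasone, against 15, 15 and 19 in vehicle (log2 fold change -2.18 ± 0.66, adjusted p = 0.0117). Scaled to library size these were 0.089, 0.183 and 0.329 CPM, against 1.22, 0.626 and 0.902 CPM. Against medium this fall did not pass (adjusted p = 0.0513). Under 10 µM hydrocortisone ABCC9 received 0, 2 and 7 counts, against 0, 9 and 13 in vehicle (-2.0 ± 0.66, adjusted p = 0.0343). The vehicle library at 0 had a ribosomal RNA share of 91.38%, and the groups overlapped there; that call was lost without hydrocortisone replicate 2 or 3 or vehicle replicate 2 or 3 (log2 fold change -1.81 to -1.51), and the call at 1 µM dexamethasone without dexamethasone replicate 2 or 3 (log2 fold change -2.12 to -1.86). KCNJ8 fell too, with log2 fold changes of -1.27 at 1 µM dexamethasone, -0.86 at 0.01 µM and -1.01 at 10 µM hydrocortisone (adjusted p = 3.76e-05, 0.00931 and 0.00132).

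Of the mitochondrial and lysosomal ABCB genes, ABCB6, ABCB8, ABCB9 and ABCB10 did not pass at 1 µM dexamethasone, with log2 fold changes from 0.16 for ABCB8 to 0.40 for ABCB6. ABCB6, a porphyrin transporter, passed at 0.01 µM (1.0 ± 0.30, adjusted p = 0.0188) on 2.1, 1.93 and 5.4 CPM, against 1.35, 1.28 and 1.77 CPM in vehicle. The highest value belongs to the library of 94.86% ribosomal RNA, and without the libraries over 75% the log2 fold change was 0.37 (adjusted p = 0.516); the call was also lost without dexamethasone replicate 3 or vehicle replicate 1 or 2 (log2 fold change 0.44 to 0.94). ABCB6 shares 54.719% of its exon bases with another annotated gene on its strand.

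Of the peroxisomal and lysosomal ABCD genes, ABCD4, which helps cobalamin leave lysosomes, rose at 1 µM dexamethasone, with 11.4, 11.3 and 9.76 CPM against 8.46, 7.43 and 9.02 CPM in vehicle (log2 fold change 0.38 ± 0.12, adjusted p = 0.0175). ABCD3 fell, with 33.2, 33.7 and 30.3 CPM against 38.8, 41.6 and 35.8 CPM in vehicle (-0.26 ± 0.09, adjusted p = 0.0262). The groups did not overlap for either gene, but ABCD4 lost its call without dexamethasone replicate 2 or 3 or vehicle replicate 2 (log2 fold change 0.31 to 0.35) and ABCD3 without dexamethasone replicate 4 or vehicle replicate 1 or 2 (log2 fold change -0.26 to -0.20).

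ABCE1 fell, and the ABCF genes did not pass. ABCE1 splits ribosomes after termination and lies on chromosome 4 (145097932 to 145129179, plus strand). It had 81.7, 83.8 and 74.4 CPM under 1 µM dexamethasone, against 110.0, 123 and 115 CPM in vehicle (log2 fold change -0.54 ± 0.08, 0.689-fold, adjusted p = 3.95e-07). At 0.01 µM it had 95.2, 90.6 and 72.1 CPM, against 117, 111 and 115 CPM in vehicle (-0.41 ± 0.08, adjusted p = 8.85e-05). The groups did not overlap at either dose. The lowest library at 0.01 µM had 94.86% ribosomal RNA. The call there was kept in all 9 settings other than leaving out 1 library (log2 fold change -0.49 to -0.29, adjusted p up to 0.0487). Under 10 µM hydrocortisone the 81.1, 89.6 and 92.2 CPM of ABCE1 lay below the 93.5, 106 and 100.1 CPM of vehicle, but the test was not passed (-0.19 ± 0.08, adjusted p = 0.0996). Those vehicle libraries were all below the other vehicle and medium libraries of day 3, which had 110 CPM or more. ABCE1 shares 276 exon bases with OTUD4 and 469 with ANAPC10 on the other strand, and whether counting used strand is not given in the sources used here. ABCF1, ABCF2 and ABCF3 had log2 fold changes of 0.03, -0.18 and 0.11 at 1 µM dexamethasone.

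**Figure D3:**
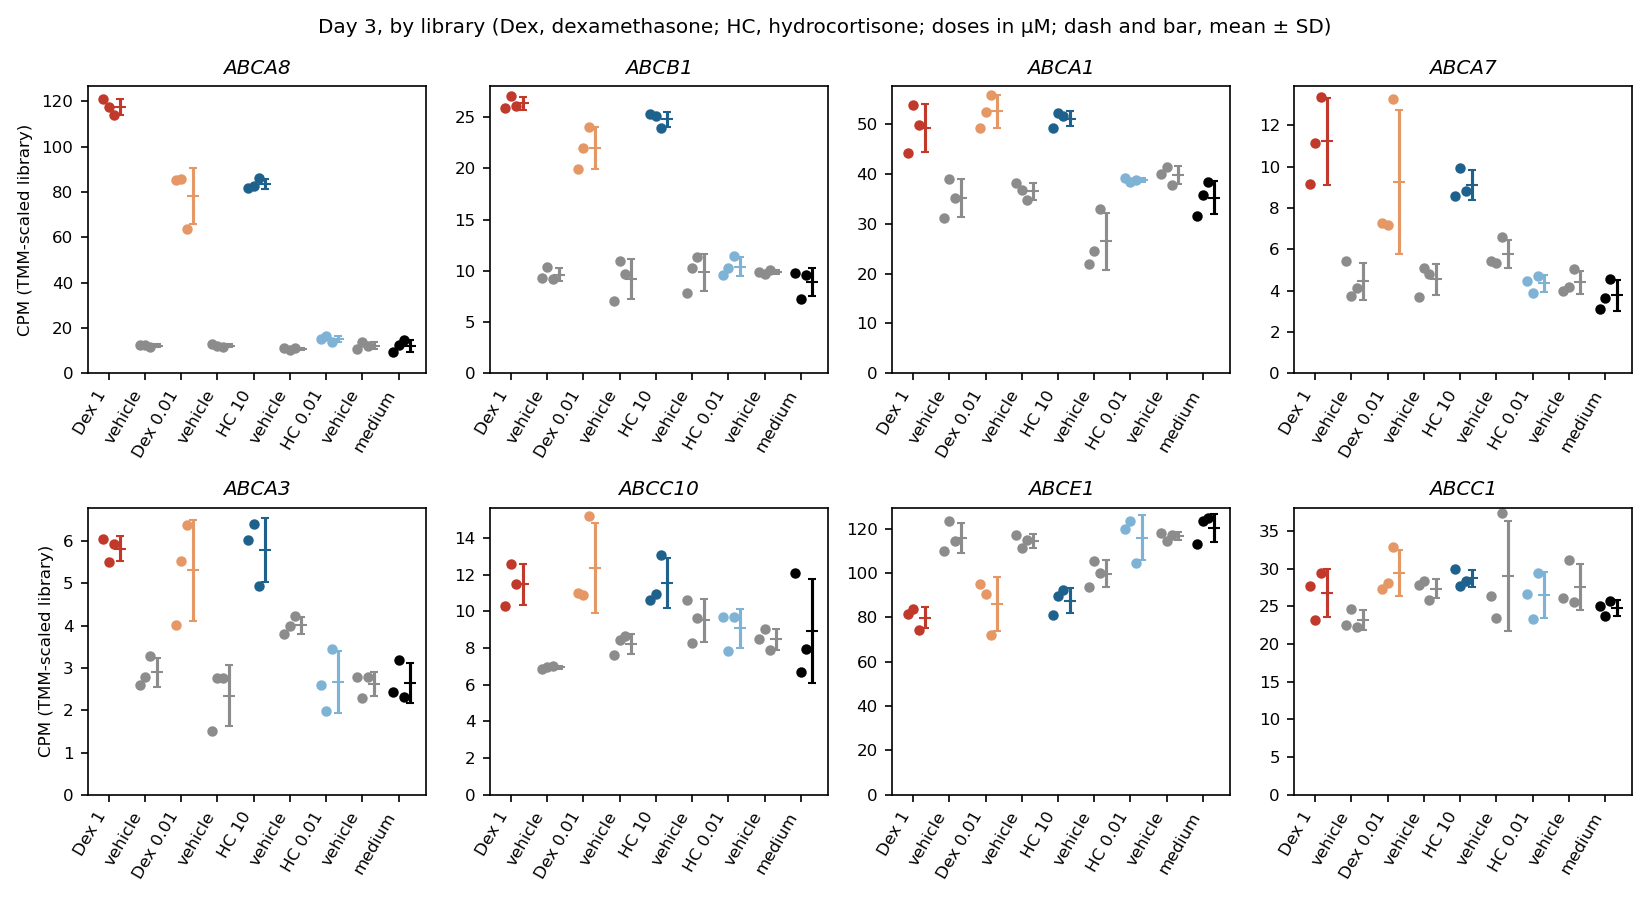
Level in each day 3 library (vertical axes, CPM of the TMM-scaled library) of 8 ABC genes under each hormone dose, its vehicle and medium; dashes and bars are mean ± SD of 3 libraries. ABCA8 and ABCB1 separate from vehicle at 3 of the 4 doses, ABCE1 lies lower under both doses of dexamethasone, and ABCC1 overlaps at 1 µM dexamethasone.

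Hydrocortisone at 0.01 µM changed no member past the threshold, nor any other gene (0% of those tested). In edgeR's quasi-likelihood test 1 member, ABCA8, had an unadjusted p below 0.05 (0.00841, adjusted p = 1), and DESeq2 also called 0 members. ABCA8 had 15.2, 16.6 and 13.8 CPM, against 10.7, 13.8 and 12.1 CPM in vehicle, and its log2 fold change was 0.32 (95% interval 0.09 to 0.55). ABCB1 had 9.56, 10.3 and 11.4 CPM, against 9.84, 9.74 and 10.1 CPM in vehicle (0.07, interval -0.18 to 0.33), and ABCA1 38.5 to 39.2 CPM, against 37.8 to 41.4 CPM in vehicle (-0.03, interval -0.23 to 0.16).

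The 10 and 0.01 µM doses of hydrocortisone, each corrected for its vehicle, differed for 3 members, all higher at 10 µM, where 4.09% of all genes tested passed, 1.73% higher and 2.36% lower. These were ABCA8 (difference of log2 fold changes 2.63 ± 0.17, adjusted p = 2.29e-15), ABCB1 (1.25 ± 0.18, adjusted p = 3.73e-06) and ABCA1 (0.98 ± 0.13, adjusted p = 1.32e-06). The 1 and 0.01 µM doses of dexamethasone differed for 0 members in edgeR's test, where 0.0476% of all genes tested passed, 0.0178% higher and 0.0297% lower; 1 member, ABCA8, had an unadjusted p below 0.05, and DESeq2 called 0 as well. The difference for ABCA8 was 0.58 (95% interval 0.25 to 0.91, adjusted p = 0.3), and its libraries did not overlap, at 114 to 121 CPM for 1 µM and 63.8 to 85.6 CPM for 0.01 µM. For ABCB1 the difference was 0.21 (interval -0.16 to 0.57) and for ABCA1 -0.04 (interval -0.31 to 0.23).

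The hormones shared 1 dose, 0.01 µM, and there their vehicle-corrected effects on day 3, the only pair compared, differed for 6 members (5 higher and 1 lower with dexamethasone), where 4.98% of all genes tested passed, 2.07% higher and 2.91% lower. The difference of log2 fold changes was 2.37 ± 0.17 for ABCA8 (adjusted p = 4.42e-14), 1.17 ± 0.18 for ABCB1 (adjusted p = 1.55e-05) and 0.56 ± 0.13 for ABCA1 (adjusted p = 0.00682). ABCA8 stood at 63.8 to 85.6 CPM with dexamethasone and at 13.8 to 16.6 CPM with hydrocortisone. ABCA3 (1.12, adjusted p = 0.0153), ABCA7 (1.02, adjusted p = 0.0136) and ABCE1 (-0.40, adjusted p = 0.0169) passed too. Without the libraries of over 75% ribosomal RNA these 3 did not pass, at 0.75, 0.56 and -0.28 (adjusted p = 0.166, 0.258 and 0.134). ABCC10 (0.48, interval 0.03 to 0.93) and ABCA2 (0.41, interval 0.08 to 0.75) did not pass.

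After washout, the RNA of ABCA8 and ABCB1 was still raised in cells that had received 1 µM dexamethasone and overlapped vehicle after 0.01 µM. On day 6 each hormone dose was set against the same 4 vehicle libraries, so these comparisons share their controls. After 1 µM dexamethasone 9 members passed (7 higher, 2 lower), where 10.2% of all genes tested passed, 5.13% higher and 5.03% lower. After 0.01 µM dexamethasone 1 did, ABCG2, higher, where 0.0833% of all genes tested passed, 0.0476% higher and 0.0357% lower. After 10 µM hydrocortisone 2 did, ABCA8 and ABCG2, both higher, where 0.892% of all genes tested passed, 0.422% higher and 0.47% lower. ABCG2 was also among the 7 higher after 1 µM dexamethasone. Its calls rest on 1 control library, as described below. After 0.01 µM hydrocortisone 0 did, where 0.0892% of all genes tested passed, 0.0892% higher and 0% lower; 5 members had an unadjusted p below 0.05 in edgeR's test, and DESeq2 called 0.

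ABCA8 had 45.3, 52.4 and 42.3 CPM on day 6 after 1 µM dexamethasone, 14.1, 13.2 and 12.8 CPM after 0.01 µM and 19.1, 20.1 and 16.7 CPM after 10 µM hydrocortisone, against 12.5 to 13.9 CPM in the 4 vehicle libraries. The libraries of 1 µM dexamethasone and 10 µM hydrocortisone lay wholly above vehicle. The log2 fold changes were 1.81 ± 0.11 (3.5-fold; adjusted p = 1.64e-16), 0.00 (95% interval -0.22 to 0.22) and 0.48 ± 0.11 (1.4-fold; adjusted p = 0.0123). The last was lost without hydrocortisone replicate 2 or 3 (log2 fold change 0.42 to 0.46). Taken against all vehicle groups of each day, the effect on ABCA8 was smaller on day 6 than on day 3, with log2 differences of -1.51 ± 0.14 for 1 µM dexamethasone (adjusted p = 4.2e-10), -2.72 ± 0.14 for 0.01 µM (adjusted p = 4.91e-18) and -2.34 ± 0.14 for 10 µM hydrocortisone (adjusted p = 8.86e-16). These changes share vehicle libraries as well. They passed for 3 members for 1 µM dexamethasone (1 upward, 2 downward), where 1.68% of all genes tested passed, 1.11% higher and 0.571% lower. For 0.01 µM they passed for 8 (2 upward, 6 downward), where 6.55% of all genes tested passed, 4.01% higher and 2.54% lower. For 10 µM hydrocortisone they passed for 5 (1 upward, 4 downward), where 6.97% of all genes tested passed, 4.31% higher and 2.66% lower. The upward changes include ABCG2 at each dose, which rests on 1 control library.

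ABCB1 had 16.3, 15.4 and 17 CPM on day 6 after 1 µM dexamethasone, against 7.61 to 11.4 CPM in vehicle (log2 fold change 0.87 ± 0.12, adjusted p = 5.38e-07). After 0.01 µM dexamethasone it had 9.73, 12 and 8.8 CPM and after 10 µM hydrocortisone 10, 9.88 and 12.2 CPM, which overlapped vehicle and did not pass (0.19 and 0.27). The changes in its effect since day 3 were -0.58 (adjusted p = 0.0387), -0.99 (adjusted p = 1.39e-05) and -1.09 (adjusted p = 2.33e-06); the first lost its call in 8 of the 22 fits that left out 1 library.

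ABCA1 had 63.7, 66.6 and 65.9 CPM on day 6 after 1 µM dexamethasone, all above the 40 to 49.3 CPM of vehicle (log2 fold change 0.55 ± 0.09, adjusted p = 1.23e-05), and the change of its effect since day 3 did not pass (0.02, 95% interval -0.21 to 0.26). After 0.01 µM dexamethasone and 10 µM hydrocortisone ABCA1 overlapped vehicle, with 40.8 to 44.3 CPM and 47.1 to 49.1 CPM, and its effect had changed by -0.68 (adjusted p = 4.62e-05) and -0.47 (adjusted p = 0.00689). These changes are relative to vehicle, in which mean ABCA1 was 34.5 CPM on day 3 and 44.9 CPM on day 6. The means with hormone on day 3 and day 6 were 49.3 and 65.4 CPM for 1 µM dexamethasone. They were 52.6 and 42.8 CPM for 0.01 µM, and 51.1 and 48.3 CPM for 10 µM hydrocortisone. The decline of ABCA3 passed for the same doses (-1.06, adjusted p = 0.00535, and -1.08, adjusted p = 0.00383). Both take the day 3 effect against all 12 vehicle libraries, in which mean ABCA3 was 2.97 CPM. The own vehicle of 10 µM hydrocortisone had a mean of 4 CPM, and against it the day 3 rise had not passed.

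ABCA7 had 7.75, 5.96 and 5.45 CPM after 1 µM dexamethasone on day 6, against 3.06 to 5.5 CPM in vehicle (log2 fold change 0.67 ± 0.17, adjusted p = 0.00672), with 1 hormone library inside the vehicle range. ABCC3 (1.16), ABCC10 (0.45), ABCE1 (-0.23) and ABCC4, an exporter of cyclic nucleotides and prostaglandins (-0.37), passed in the same comparison, with adjusted p of 0.0185, 0.037, 0.0249 and 0.0211. Each of these 5 lost its call in 3 or 4 of the 7 fits that left out 1 library, and when the 1 vehicle library of the same dose served as the only control.

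**Figure D4:**
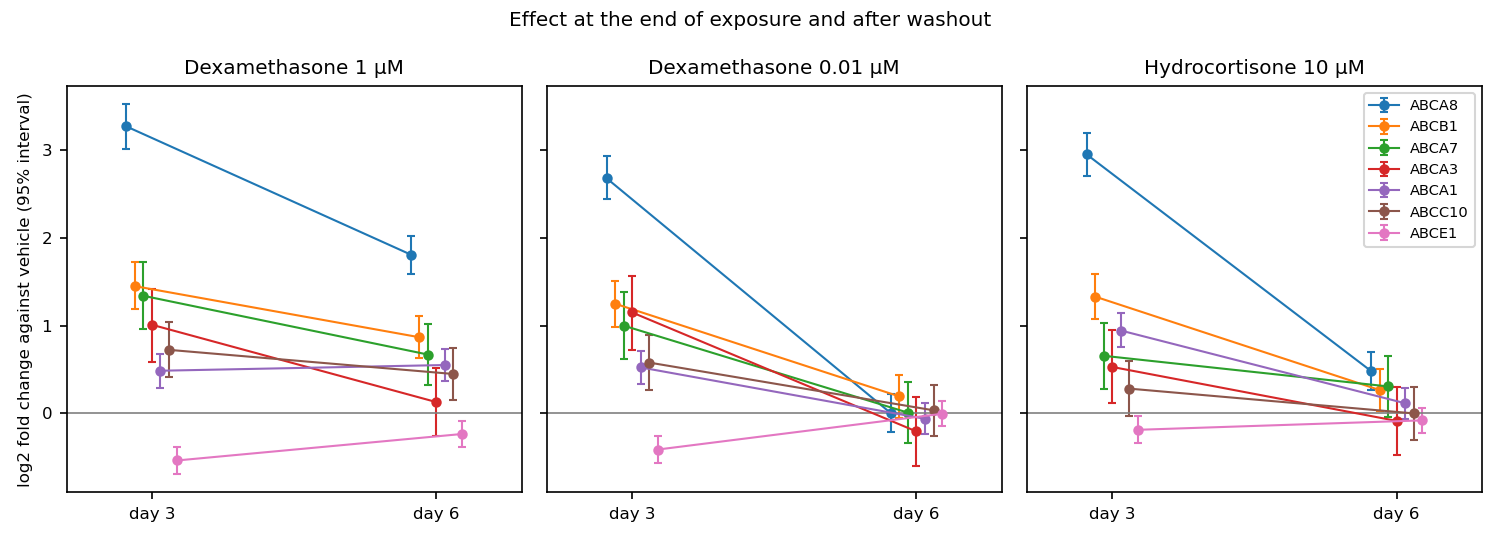
Log2 fold change against vehicle (vertical axis, with 95% interval) of 7 ABC genes at the end of exposure (day 3, own vehicle) and after washout (day 6, the 4 vehicle libraries) for 3 treatments. ABCA8 is at 1.81 on day 6 after 1 µM dexamethasone and at 0.00 after 0.01 µM, and ABCA1 is at 0.55 after 1 µM.

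ABCG2 passed on day 6 and in the washout change, and its calls rest on 1 control library. It had 2.72, 2.27 and 1.99 CPM on day 6 after 1 µM dexamethasone, 1.85, 3.17 and 2.03 CPM after 0.01 µM and 1.48, 2.07 and 2.12 CPM after 10 µM hydrocortisone. The 4 vehicle libraries had 0, 0.996, 2.34 and 2.09 CPM, with a mean of 1.36 CPM. The fit averages these libraries on the log scale, so its fold changes are larger than those between mean CPM values. The library at 0 is the vehicle of 1 µM dexamethasone (replicate 4), in which ribosomal RNA took 77.12% of the counts and 12.8 counts of ABCG2 would stand at the median of the other day 6 libraries. The other day 6 library over 75%, of 0.01 µM hydrocortisone, had 1 count of ABCG2, and the remaining 14 ranged from 0.996 to 3.17 CPM. The fitted log2 fold changes were 2.43 (adjusted p = 0.000137), 2.44 (adjusted p = 0.0102) and 2.13 (adjusted p = 0.00868); without the libraries over 75% they were 0.47 (adjusted p = 0.21), 0.47 (adjusted p = 0.659) and 0.17 (adjusted p = 0.856). The part of the ribosomal RNA share in the count of 0 was not tested.

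**Figure D5:**
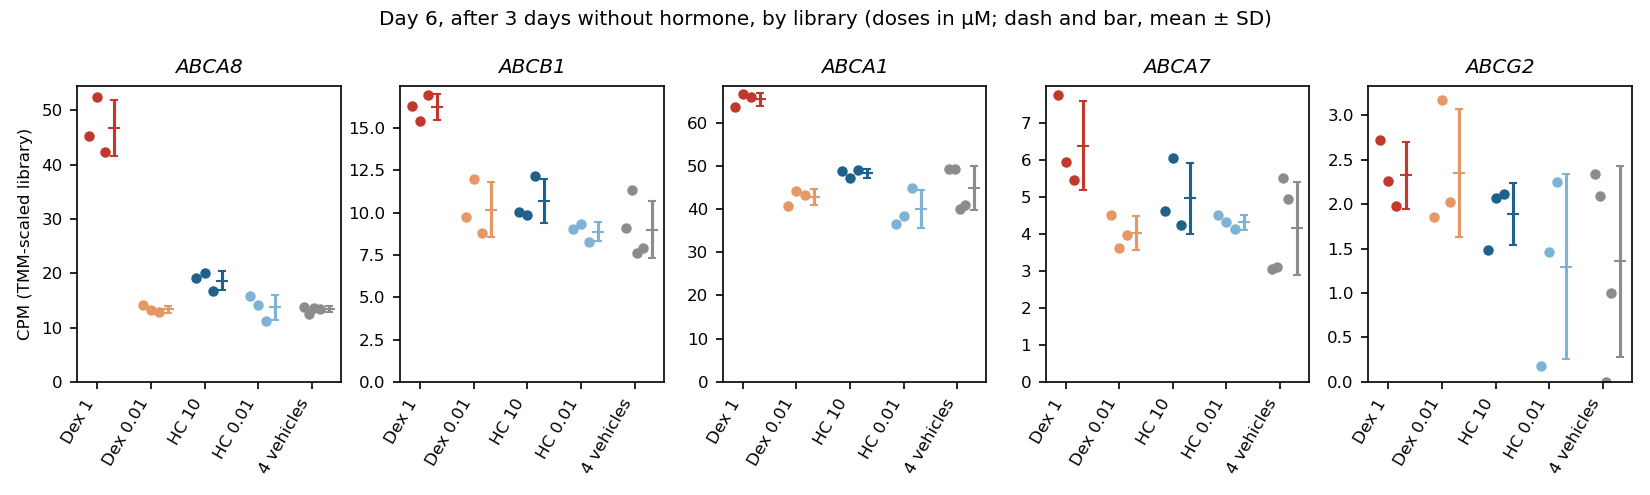
Level in each day 6 library (vertical axes, CPM of the TMM-scaled library) of 5 ABC genes after each hormone dose and in the 4 vehicle libraries; dashes and bars are mean ± SD. The 3 libraries after 1 µM dexamethasone are above all vehicles for ABCA8, ABCB1 and ABCA1, and 1 vehicle library of ABCG2 lies at 0.

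The vehicle itself, all 12 libraries against the 3 of medium on day 3, changed no member and no other gene past the threshold (0% of those tested). In edgeR's quasi-likelihood test 2 members had an unadjusted p below 0.05, and DESeq2 called 0 members. These were ABCA7, with 3.71 to 6.57 CPM in vehicle and 3.1, 3.65 and 4.57 CPM in medium (log2 fold change 0.34, 95% interval 0.03 to 0.64, adjusted p = 0.907), and ABCC5, with 10.9 to 16.9 CPM in vehicle and 14.6, 15.3 and 15.4 CPM in medium (-0.17, interval -0.32 to -0.01, adjusted p = 0.907). The ranges overlapped for both.

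Genes that act beside the transporters were read from lists of known roles. Of 14 genes of sterol handling, 7 rose and 0 fell at 1 µM dexamethasone, 6 rose and 0 fell at 0.01 µM, and 2 rose and 0 fell at 10 µM hydrocortisone; the median log2 fold changes of the 14 were 0.30, 0.35 and 0.12. Over all genes tested, 10.3% rose and 12.3% fell at 1 µM dexamethasone, 6.15% and 7.84% at 0.01 µM, and 5.58% and 7.5% at 10 µM hydrocortisone, which is the background of each list given here. RXRA, the receptor that pairs with the liver X receptors on the ABCA1 gene, rose by 1.04 on the log2 scale at 1 µM dexamethasone (adjusted p = 2.54e-09), by 0.56 at 0.01 µM (adjusted p = 0.000571) and by 0.55 at 10 µM hydrocortisone (adjusted p = 0.00074). NPC1, which moves cholesterol out of lysosomes, rose by 0.68, 0.49 and 0.52 in the same 3 comparisons (adjusted p = 7.15e-05, 0.00602 and 0.00356). The liver X receptor genes NR1H3 (0.23) and NR1H2 (-0.14) did not pass at 1 µM dexamethasone.

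Of 6 tested genes of steroid and drug handling, 1 rose and 2 fell at 1 µM dexamethasone, 0 rose and 2 fell at 0.01 µM, and 1 rose and 2 fell at 10 µM hydrocortisone, where 22.6%, 14% and 13.1% of all genes passed in either direction. NR3C1, the glucocorticoid receptor gene, was lower, with log2 fold changes of -0.49, -0.46 and -0.39 (adjusted p = 2.62e-05, 0.000145 and 0.00136). TAP1 and TAP2, ABC genes under other names, encode the subunits that together carry peptides to MHC class I molecules. TAP1 rose at both doses of dexamethasone (0.50 and 0.50; adjusted p = 0.0129 and 0.0201), while TAP2 had log2 fold changes of -0.13 and -0.35 and did not pass (adjusted p = 0.588 and 0.133). Of 15 tested partners of the members, 2 rose and 2 fell at 1 µM dexamethasone and 2 rose and 3 fell at 0.01 µM. At 10 µM hydrocortisone 0 rose and 1 fell. The share of partners was near the 22.6% of all genes at 1 µM dexamethasone and below the 13.1% at 10 µM hydrocortisone. At 0.01 µM dexamethasone it was above the 14% of all genes, in a list of only 15. Among those of ABCE1, HBS1L, a ribosome rescue factor, fell at 1 µM dexamethasone (-0.29, adjusted p = 0.000626) and did not pass at 0.01 µM (-0.08, adjusted p = 0.494). ETF1, a termination factor, fell at 0.01 µM (-0.34, adjusted p = 0.00306) and did not pass at 1 µM (-0.21, adjusted p = 0.0652). PELO, which acts with HBS1L, passed at neither dose (-0.17 at 1 µM and 0.12 at 0.01 µM).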

How the data were processed

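Total RNA of 43 HMC3 cultures was made into stranded libraries and sequenced as paired ends, per the labels' protocols. The authors deposited raw read counts per gene, and GRCh38, STAR, Subread, featureCounts and FastQC appear in the submitters' processing notes without a stated role or order; neither versions nor counting settings were given in the sources used. Counts were fitted with edgeR 4.0.16 in R 4.3.3 by quasi-likelihood with TMM scaling, in a design of 17 groups with 26 residual degrees of freedom, after a filter on low counts (minimum count 10, minimum total 15). Benjamini-Hochberg adjustment ran over all 16816 genes and 15 comparisons were made, each adjusted on its own; calls have an adjusted p below 0.05. Intervals are at 95% and come with the model's standard error. Total counts were 7638840 to 24426643 a library. The script was tested on simulated counts. Alternatives were other size factors, no filter, no ribosomal RNA genes, leaving out libraries over 75% ribosomal RNA, other controls, only a comparison's own libraries, a replicate block, DESeq2 1.42.0 and leaving out each library in turn, one at a time. Members past the threshold may be named in their comparison; library values are given for ABCB1, ABCA8, ABCA1, ABCG2, ABCC1 and the 10 other members with the smallest p on day 3, and up to 6 related genes with the smallest p at 1 µM dexamethasone are named. ABCA5, ABCA10, ABCA12, ABCD3 and ABCG4, whose values are also given, were chosen after their values were seen. So were NR1H2, NR1H3, TAP1, TAP2, PELO and ETF1. The members and lists were chosen with earlier results of these data known. Values of some genes are not reported here, in text or figures; they stay in the counts and medians.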

Additional observations from a re-analysis of the deposited data

Results flagged for a closer look

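Among the 4 vehicle libraries of day 6, a single library stood away from the other 3 for each of 3 genes. For ABCA12 (0.485 CPM, 3 counts) and ABCA4 (0.647 CPM, 4 counts) it was the highest, the vehicle of 1 µM dexamethasone, with 77.12% ribosomal RNA. For ABCA3 (1.75 CPM, 46 counts) it was the lowest, the vehicle of 0.01 µM hydrocortisone. For a single gene chance alone gives about 1 such group in 20. The rule was applied to each of the 32 tested members, so some such groups arise by chance.

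Some effects differed between doses, hormones or days by a test of the difference itself. Between 10 and 0.01 µM hydrocortisone the log2 differences were 2.63 for ABCA8, 1.25 for ABCB1 and 0.978 for ABCA1. Between dexamethasone and hydrocortisone at 0.01 µM they were 2.37 for ABCA8, 1.17 for ABCB1, 1.12 for ABCA3, 1.02 for ABCA7, 0.558 for ABCA1 and -0.404 for ABCE1.

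From day 3 to day 6 the effect of 1 µM dexamethasone changed by -1.51 for ABCA8, -0.58 for ABCB1 and 2.57 for ABCG2. For 0.01 µM dexamethasone the changes were -2.72 for ABCA8, -0.992 for ABCB1, -0.684 for ABCA1, -1.06 for ABCA3, -0.927 for ABCA7, 0.37 for ABCE1, -3.11 for ABCA12 and 2.61 for ABCG2. For 10 µM hydrocortisone they were -2.34 for ABCA8, -1.09 for ABCB1, -0.468 for ABCA1, -1.08 for ABCA3 and 1.9 for ABCG2. The ABCG2 changes rest on the vehicle library with 0 counts of it. For 0.01 µM dexamethasone, the ABCA7 and ABCE1 changes did not pass without day 3 dexamethasone replicate 3, of 94.86% ribosomal RNA (-0.593, adjusted p = 0.104, and 0.259, adjusted p = 0.0785). At that dose the ABCA3 change did not pass without the libraries over 75% ribosomal RNA (adjusted p = 0.0728). The ABCA12 change lost its call in 12 of the 22 fits that left out 1 library (adjusted p up to 0.134).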

How the results depend on the processing

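Of 66 calls of single members, 32 kept direction and threshold under every alternative run. Over settings other than leaving out 1 library, 433 of 490 values kept both, 55 lost the call and 2 reversed; over fits without 1 library, 626 of 718 kept both, 91 lost it and 1 reversed. The reversals were of ABCG2 for 10 µM hydrocortisone: -0.307 on day 6 with its own vehicle library as control, and for the washout change -0.0461 without libraries over 75% ribosomal RNA and -0.0769 without the day 6 vehicle of 1 µM dexamethasone (range over such fits -0.0769 to 2.71).

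Counts of called members moved as follows. For 10 µM hydrocortisone on day 3 the count of 5 became 8 without ribosomal RNA genes, 14 against all day 3 vehicles and 11 against medium, and 3 to 5 without 1 library, 3 without hydrocortisone replicate 3. For 0.01 µM dexamethasone on day 3 the 10 became 5 with only its 6 libraries and 7 to 9 without 1 library. For 1 µM dexamethasone on day 3 the 14 became 10 to 14 without 1 library. On day 6 the 9 of 1 µM dexamethasone became 4 with its own vehicle alone and 4 to 12 without 1 library, 4 without dexamethasone replicate 2, and 5 without dexamethasone replicate 3 or the vehicle of 0.01 µM hydrocortisone. The 1 of 0.01 µM dexamethasone became 0 without ribosomal RNA genes, without libraries over 75%, with its own vehicle and in DESeq2, and 0 to 1 without 1 library, 0 without dexamethasone replicate 2 or the vehicle of 1 µM dexamethasone. The 2 of 10 µM hydrocortisone became 1 without libraries over 75% and in DESeq2, 0 with its own vehicle, and 0 to 2 without 1 library, 0 without hydrocortisone replicate 3 and 1 without its replicate 2 or the vehicle of 1 µM dexamethasone. The 0 of 0.01 µM hydrocortisone became 0 to 1, 1 without its replicate 2. Without libraries over 75% the 6 between hormones became 3 (3 to 6 without 1 library, 3 without hydrocortisone replicate 3) and the 8 of the 0.01 µM dexamethasone washout 4. The causes were not tested.

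Whether replicate numbers pair hormone with vehicle is not known. Deviations of same-numbered day 3 libraries correlated at -0.336 to 0.202, over 0.1 in 3 of 9 pairs. Those of different-numbered libraries correlated at -0.377 to 0.341, over 0.1 in 15 of 27, so the values cannot settle it. Between day 6 and day 3 of a dose same-numbered deviations correlated at -0.293 to 0.361, over 0.1 in 7 of 12 pairs, which include all 3 of 10 µM hydrocortisone (0.264, 0.264 and 0.329). With a replicate block, the washout change passed for 3, 8 and 5 members, the same as without it, and no call of a single member was lost there. On day 3 15, 9, 5 and 0 members passed with the block, and ABCC3 at 0.01 µM dexamethasone did not (1.10, adjusted p = 0.0536). Low counts limit ABCC9, ABCA12, ABCA10, ABCG4 and ABCC3. At 0.01 µM dexamethasone on day 3 ABCC3 had 21, 33 and 2 counts, against 5, 6 and 11 in vehicle.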
